A study of Bos taurus with 34 samples.

Results

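Collagen chains, laminin chains and integrin subunits were described in bovine liver, together with every other gene whose symbol opens in the same way in the authors' deposited comparison of SLICK with FREE animals. The symbol rule found 61 of the 14161 genes compared: 26 collagen chains, 7 laminin chains, 25 integrin subunits and 3 genes named after the integrins they bind (ITGB1BP1, ITGB1BP2 and ITGB3BP). The families are thus 58 of the 61, and the 3 binding proteins are given apart. A further 17 genes with such names in the count tables, among them COL4A4, COL16A1, LAMA2 and LAMA5, are absent from that comparison. They were therefore not analysed here.

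Collagens are triple helices of 3 chains that form fibrils, nets or beaded filaments between cells. Laminins join an alpha, a beta and a gamma chain and, with collagen IV, build basement membranes. Integrins are receptors made of an alpha and a beta subunit, and they tie cells to these proteins or, on leukocytes, to other cells. In liver, fibrillar collagens are known as products of stellate cells and portal fibroblasts and as the material of scars. Collagen XVIII, the precursor of endostatin, is known as a product of hepatocytes.

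The series has 34 liver samples, all labelled as Senepol cattle, in 2 experiments on SLICK1, a truncating allele of the prolactin receptor gene PRLR. In the TruSeq experiment, 10 SLICK samples came from daughters with 1 copy of the allele (5 by the bull Blanco and 5 by Lone Ranger), and 8 FREE samples came from daughters with 0 copies (1 by Blanco and 7 by Lone Ranger). Genotype and sire are therefore partly confounded. The SMARTer experiment holds 5 samples with 1 copy (S1) and 11 with 2 copies (S2). The labels give no age or feeding.

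Library columns are named by animal numbers that no sample label holds. Values per animal, sequencing depth, the SMARTer groups and the sires were for that reason not analysed here, and no spread between animals can be shown. The comparison rests on what the authors deposited for each gene: the log2 fold change (log2FC), the average level as log2 CPM (read counts scaled to a common library size), the F score, the p-value and the p adjusted for multiple testing (FDR). A positive log2FC is read as higher in SLICK from the name of that table. In bulk liver, fewer cells of a type and less RNA per cell cannot be told apart. The hepatocyte marker albumin had the highest level of the 12 hepatocyte markers per kb of gene length (14.80 log2 CPM per kb, from the authors' deposited table).

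No collagen, laminin or integrin gene passed an adjusted p (FDR) of 0.05. By the authors' deposited table, 0 of the 61 genes passed, where 0.501% of all 14161 genes did (71 genes). The smallest adjusted p among them was 0.110. At an unadjusted p under 0.05 there were 5 of the 61, which is 8.20%, against 16.0% of all genes. Of these 5, 3 were higher in SLICK (7.22% of all genes were) and 2 were lower (8.79% of all genes were). The share with an unadjusted p under 0.1 was 24.6% of the 61 and 23.6% of all genes. These shares lie near or under the background, so the count is no result about the families.

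**Figure D1:**
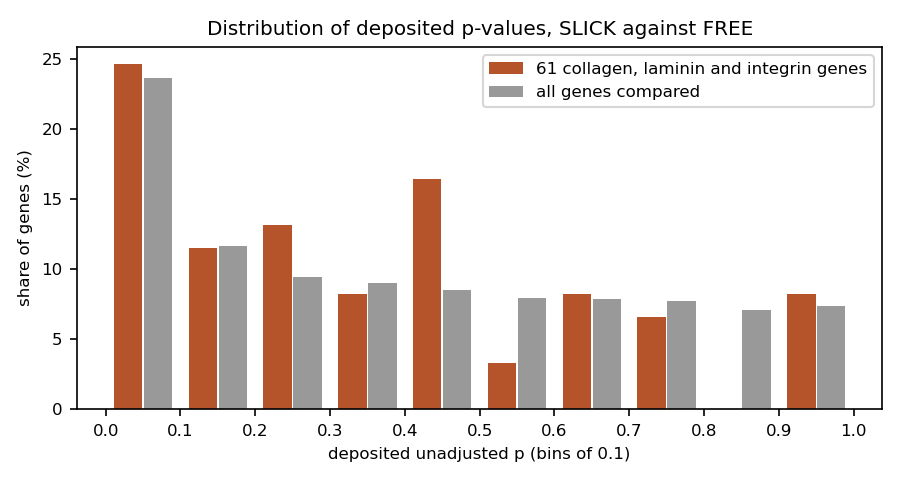
Share of genes (y axis, percent) in each bin of the deposited unadjusted p (x axis, bins of 0.1) for the 61 collagen, laminin and integrin genes and for all 14161 genes. The first bin holds 24.6% of the former and 23.6% of the latter.

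Differences were small in most of the 61 genes. The median log2FC was -0.07, against -0.01 over all genes, and the median size without sign was 0.12, against 0.11, in the authors' deposited table. An average of at least 0 log2 CPM was held by 52 of the 61. Negative values were found for 38 of the 61 genes (62.3%) and for 51.8% of all genes. Each fold change and its F score together imply an approximate 95% interval. For 56 of the 61 genes this interval lay within 1 log2 unit of 0 on both sides, and for 34 within 0.5. COL8A2, ITGA11, ITGB6 and ITGB8 were among the 5 genes whose interval reached past 1 log2 unit. These 5 averaged under 0 log2 CPM in the authors' deposited table, and for them a change of more than 1 log2 unit lower lay within the interval.

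**Figure D2:**
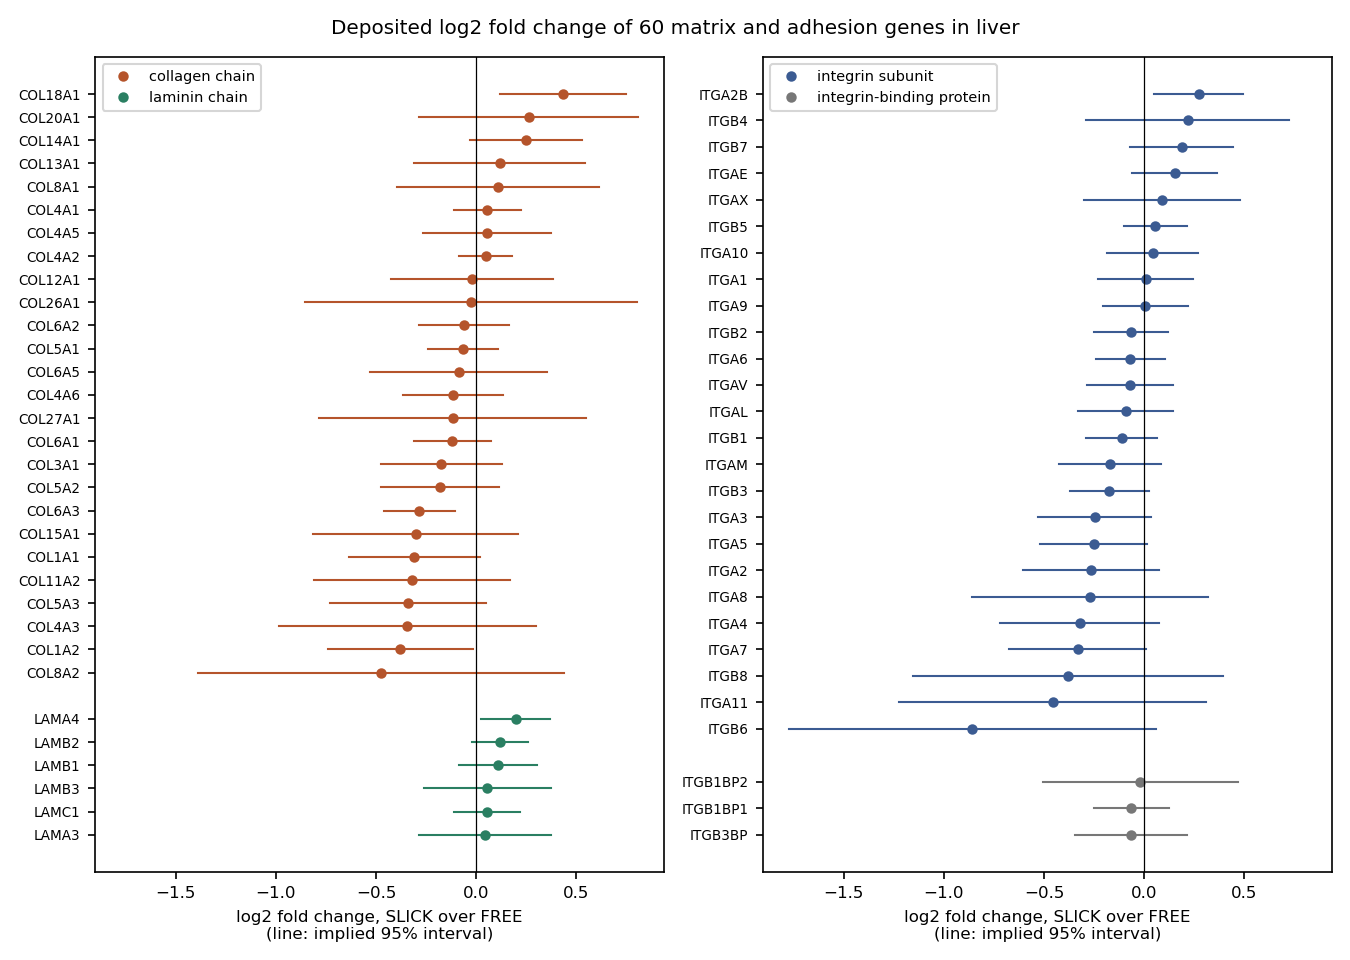
Deposited log2 fold change of SLICK over FREE (x axis, points) with the interval that it and its F score imply at 95% (lines), for 60 of the 61 genes, with collagen and laminin chains (left) and integrin subunits and integrin-binding proteins (right). The lines of 5 of the 61 genes do not cross 0: COL6A3, COL1A2, COL18A1, LAMA4 and ITGA2B.

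Among collagens, 1 gene made up most of the level. The COL18A1 average was 8.01 log2 CPM per kb of gene length, which put it at percentile 98.1 of all genes compared. The next collagen, COL3A1 of type III fibrils, stood at 5.47 log2 CPM per kb. With the averages turned back to the linear scale, COL18A1 held 65.4% of the summed level per kb of the 26 collagens, and COL3A1 held 11.2%. COL4A1 and COL4A2, the common chains of basement membrane collagen IV, had levels of 3.77 and 3.42 log2 CPM per kb. COL6A1, a chain of the beaded filaments of collagen VI, followed at 3.35 log2 CPM per kb. The lowest was COL8A2 with -5.66 log2 CPM per kb. These levels are averages over the animals compared, so how far neighbours in the order differ beyond the spread is not known.

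**Figure D3:**
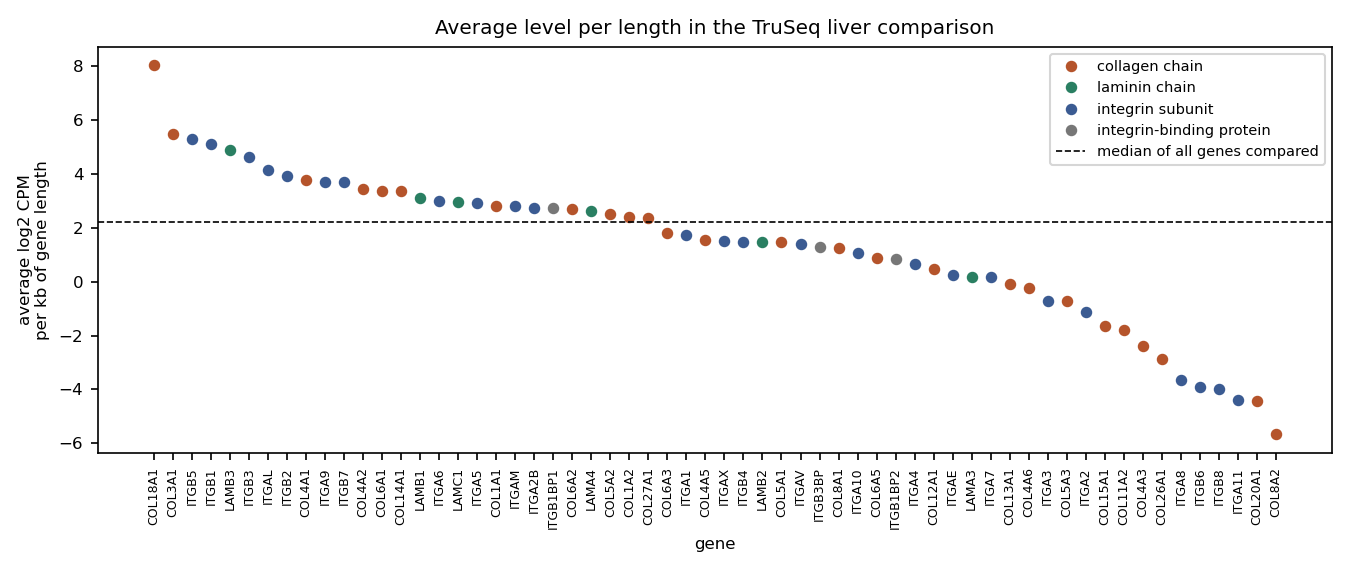
Average level (y axis, log2 CPM per kb of gene length, from the authors' average and the deposited gene length) of 60 of the 61 genes in falling order (x axis), coloured by family. COL18A1 stands at 8.01, and the dashed line marks the median of all genes compared, 2.21.

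COL18A1 was also the collagen with the highest positive difference. Its log2FC was 0.43 in the authors' deposited table (implied interval 0.12 to 0.75), which is 1.35-fold higher in SLICK, with an unadjusted p of 0.00940 and an FDR of 0.160. The gene lies on chromosome 1 of ARS-UCD1.2, from 145202138 to 145296595 on the + strand (ENSBTAG00000023907). COL15A1, the other multiplexin, had a log2FC of -0.30 in the authors' deposited table and a level of -1.66 log2 CPM per kb. The difference between them in log2FC was 0.74, which was not tested. Hepatocyte markers stood on the same side as COL18A1: 10 of 12 were positive, with a median log2FC of 0.30, and 6 of the 12 were higher at an unadjusted p under 0.05 (against 7.22% of all genes). Their part in the COL18A1 value was not tested.

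All 8 fibrillar collagens had a negative log2FC, where 51.8% of all genes did, and 0 passed, where 0.501% of all genes did. An unadjusted p under 0.05 was held by 1 of the 8 (12.5%), under the 16.0% of all genes. The median of the 8 was -0.24 in the authors' deposited table, where the median of all genes was -0.01. COL1A2, a chain of the main scar collagen, had a log2FC of -0.38 (implied interval -0.74 to -0.02, FDR = 0.294), and its partner chain COL1A1 one of -0.31 (-0.64 to 0.02, FDR = 0.357), in the authors' deposited table. In the authors' deposited table the unadjusted p was 0.0406 for COL1A2 (chromosome 4, 11776554 to 11812997, + strand) and 0.0628 for COL1A1 (chromosome 19, 36457658 to 36474513, + strand). The levels of COL1A1 and COL1A2 were 2.81 and 2.39 log2 CPM per kb, a ratio of 1.34. COL3A1, with 6.29 times the level of COL1A1 per kb, had a log2FC of -0.17 and an FDR of 0.626 in the authors' deposited table.

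The minor fibrillar chains were negative too. In the authors' deposited table COL5A1, COL5A2 and COL5A3, which limit fibril width, had log2FCs of -0.06, -0.18 and -0.34. COL11A2, best known from cartilage, had a log2FC of -0.32, and COL27A1 one of -0.12, in the authors' deposited table. The FDR of these 5 ran from 0.402 (COL5A3) to 0.912 (COL27A1). COL27A1 had the widest interval of the 8, from -0.78 to 0.55, although its level of 2.35 log2 CPM per kb was close to that of COL1A2.

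Markers of the cells that make fibrillar collagen did not share a direction. Of 14 stellate cell and fibroblast markers, 8 were negative and 6 positive, 1 had an unadjusted p under 0.05 (7.14%, under the 16.0% of all genes) and the median log2FC was -0.02. The stellate cell markers LRAT, DES and ACTA2 had log2FCs of 0.12, -0.02 and -0.05, and the pericyte and stellate receptor PDGFRB one of 0.13, in the authors' deposited table. DPT, a collagen-binding protein of fibroblasts, had a log2FC of -0.46 and an FDR of 0.214 in the authors' deposited table. Their part in the collagen values was not tested.

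COL6A3 had the smallest p of all 61 genes. Its log2FC was -0.28 in the authors' deposited table (implied interval -0.46 to -0.11), which is 1.22-fold lower in SLICK, with an unadjusted p of 0.00359 and an FDR of 0.110. It ranked 482 by p among the 14161 genes. COL6A3 is the long chain of collagen VI and lies on chromosome 3 from 116782465 to 116855219 on the - strand (ENSBTAG00000030190). The chains it assembles with gave -0.12 (COL6A1, FDR = 0.588) and -0.06 (COL6A2, FDR = 0.850), and COL6A5, an alternative to COL6A3, gave -0.09, as log2FCs in the authors' deposited table. Per kb, the level of COL6A3 was 0.343 times that of COL6A1 and 0.544 times that of COL6A2. The other genes listed with collagen VI were COL8A1, COL8A2 and COL26A1, with log2FCs of 0.11, -0.48 and -0.03 in the authors' deposited table.

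The common chains of collagen IV lay near 0. COL4A1 and COL4A2 had log2FCs of 0.06 and 0.05 in the authors' deposited table, with implied intervals of -0.11 to 0.22 and -0.09 to 0.18. COL4A5, COL4A6 and COL4A3, chains of more specialised basement membranes, had log2FCs of 0.05, -0.12 and -0.34 in the authors' deposited table. The last of these averaged -0.08 log2 CPM in the authors' deposited table. Of the collagens that sit on fibril surfaces, COL14A1 had a log2FC of 0.25 (FDR = 0.395), COL12A1 one of -0.02 and COL20A1 one of 0.26 in the authors' deposited table. For the transmembrane COL13A1 it was 0.12 by the authors' deposited table.

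Laminin chains were mostly positive: 6 of the 7 had a log2FC above 0 and 1 (14.3%) was negative, against 51.8% of all genes. The adjusted threshold was passed by 0 of the 7, where 0.501% of all genes passed. An unadjusted p under 0.05 was held by 1 of the 7 (14.3%), near the 16.0% of all genes. The median was 0.05 in the authors' deposited table. LAMA4, the alpha chain of vessel wall laminins, had a log2FC of 0.20 (implied interval 0.03 to 0.37), which is 1.15-fold, with an unadjusted p of 0.0265 and an FDR of 0.244 in the authors' deposited table. It lies on chromosome 9 from 38176518 to 38331079 on the + strand (ENSBTAG00000008817). Its partners LAMB1, LAMB2 and LAMC1 had log2FCs of 0.11, 0.12 and 0.05 in the authors' deposited table. The levels of LAMB1, LAMC1 and LAMA4 were close, at 3.08, 2.95 and 2.62 log2 CPM per kb, and LAMB2 stood lower at 1.47.

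Endothelial markers were mostly on the same side as these chains. Of 13 endothelial markers 10 were positive and 3 negative (23.1%, against 51.8% of all genes), with a median log2FC of 0.12. An unadjusted p under 0.05 was held by 1 of the 13 (7.69%), under the 16.0% of all genes. This was STAB1, a scavenger receptor of sinusoidal endothelium, with a log2FC of 0.29 and an FDR of 0.198 in the authors' deposited table. The 3 negative markers were VWF, EMCN and ENG, with log2FCs of -0.12, -0.09 and -0.02 in the authors' deposited table. Their part in the laminin values was not tested.

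Among chains of epithelial laminin, LAMB3 had the highest laminin level, 4.87 log2 CPM per kb, while its partner LAMA3 had 0.17, or 0.0386 times the level of LAMB3. LAMB3 held 52.5% of the summed linear level per kb of the 7 laminins. The log2FCs were 0.05 for LAMB3 and 0.04 for LAMA3 in the authors' deposited table. The cholangiocyte markers of the lining of bile ducts lay lower: 11 of 12 were negative, with a median log2FC of -0.52, and 7 of the 12 were lower at an unadjusted p under 0.05 (58.3%, against 8.79% of all genes). KRT7 had a log2FC of -1.03 and KRT19 one of -0.03 in the authors' deposited table. Their part in the laminin values was not tested.

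Integrin subunits gave 0 genes past the adjusted threshold and 1 of 25 with an unadjusted p under 0.05 (4.0%), where 0.501% and 16.0% of all genes did so. Their median log2FC was -0.09 in the authors' deposited table, and 16 of the 25 were negative. By level, beta subunits led: ITGB5 had 5.28, ITGB1 had 5.11 and ITGB3 had 4.62 log2 CPM per kb. ITGB1 pairs with the largest set of alpha subunits, while ITGB5 and ITGB3 pair with ITGAV. These 3 had log2FCs of 0.06, -0.11 and -0.17, with FDR values of 0.794, 0.581 and 0.396 in the authors' deposited table. ITGAV stood at 1.38 log2 CPM per kb, 0.0670 times the level of ITGB5, and had a log2FC of -0.07 in the authors' deposited table.

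ITGA2B had the smallest p of the integrins. Its log2FC was 0.27 in the authors' deposited table (implied interval 0.05 to 0.49), which is 1.21-fold higher in SLICK, with an unadjusted p of 0.0194 and an FDR of 0.213. ITGA2B is the alpha subunit of the platelet fibrinogen receptor, whose known partner is ITGB3, and it lies on chromosome 19 from 44172212 to 44185276 on the - strand (ENSBTAG00000008165). Its log2FC exceeded that of ITGB3 by 0.45, a difference that was not tested. Other platelet markers did not share a direction: PPBP had a log2FC of 0.59, GP1BA one of 0.00 and TREML1 one of -1.62 in the authors' deposited table. TREML1 averaged -3.33 and PPBP -0.0003 log2 CPM in the authors' deposited table. The platelet list (4 genes compared, ITGA2B among them) had a median log2FC of 0.13. ITGA2B itself enters that median, so the median is no separate value to set beside it. Without ITGA2B, the middle log2FC of the list is that of GP1BA, -0.004. The part of platelets in the ITGA2B value was not tested.

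The collagen-binding alpha subunits were spread around 0. ITGA1, with 1.72 log2 CPM per kb, had a log2FC of 0.01 (implied interval -0.23 to 0.25), and ITGA10 one of 0.04, in the authors' deposited table. ITGA2 and ITGA11 had -0.26 and -0.46, with FDR values of 0.467 and 0.612 in the authors' deposited table. Laminin-binding alpha subunits were negative in 3 of 3 cases, where 51.8% of all genes were, and 0 had an unadjusted p under 0.05. ITGA7, best known from muscle, had a log2FC of -0.33 (unadjusted p = 0.0546, FDR = 0.337), ITGA3 one of -0.25 and ITGA6 one of -0.07 in the authors' deposited table. ITGB4, which pairs with ITGA6 alone, had a log2FC of 0.22 by the authors' deposited table, with an interval of -0.29 to 0.73.

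Among subunits that recognise RGD or related sites, ITGA5, the alpha subunit of the fibronectin receptor, had a log2FC of -0.25 (unadjusted p = 0.0625, FDR = 0.356) in the authors' deposited table. ITGA4 and ITGA8 had log2FCs of -0.32 and -0.27 by the authors' deposited table. ITGA9, with a higher level than ITGA5 (3.71 against 2.93 log2 CPM per kb), had a log2FC of 0.01 by the authors' deposited table and an interval of -0.21 to 0.22. The scarce epithelial beta subunit ITGB6, which with ITGAV activates latent TGF-beta, had the most negative log2FC of the 61, -0.86 in the authors' deposited table. By the authors' deposited table it averaged -2.02 log2 CPM, its interval ran from -1.77 to 0.06 and its adjusted p was 0.360. ITGB8, of like function, had a log2FC of -0.38 and averaged -2.46 log2 CPM in the authors' deposited table.

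Leukocyte integrins as listed here had FDR values of at least 0.505. ITGA4, given above with the RGD class (FDR = 0.446), is not in that list. ITGB2, the beta subunit shared by leukocyte adhesion receptors, stood at 3.90 log2 CPM per kb, and its partners ITGAL (T cells and others), ITGAM and ITGAX (myeloid cells) at 4.15, 2.81 and 1.52. The log2FCs of ITGB2, ITGAL, ITGAM and ITGAX were -0.07, -0.09, -0.17 and 0.09 in the authors' deposited table, with FDR from 0.552 (ITGAM) to 0.879 (ITGAX). ITGB7 of gut-homing lymphocytes and its partner ITGAE had log2FCs of 0.19 and 0.15 in the authors' deposited table. The subunits ITGB7 and ITGA4, which also pair, differed by 0.51 in log2FC, untested. ITGAD, a leukocyte subunit that the symbol rule leaves out, had a log2FC of 0.41 and an FDR of 0.639 in the authors' deposited table. Of 12 T and NK cell markers, 0 had an unadjusted p under 0.05, against 16.0% of all genes, and their median log2FC was 0.04. The median was 0.13 for 12 macrophage markers, of which 1 was lower and 0 higher at that p (8.33%, near the 8.79% of all genes lower). For 7 neutrophil markers it was -0.40, and 7 were negative, where 51.8% of all genes were. At an unadjusted p under 0.05, 3 of these 7 were lower (42.9%, against 8.79% of all genes). For 7 B and plasma cell markers the median was 0.01, with 4 positive and 3 negative. At that p, 2 were lower and 0 higher (28.6%, against 8.79% of all genes lower). The 2 lower were JCHAIN at -0.35 and MZB1 at -0.50 in the authors' deposited table. Their part in the leukocyte integrin values was not tested.

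The 3 integrin-binding proteins had log2FCs of -0.06 (ITGB1BP1, which binds the tail of ITGB1 and restrains it), -0.07 (ITGB3BP, also a centromere protein) and -0.02 (ITGB1BP2, a muscle chaperone-like protein) in the authors' deposited table. The FDR of these 3 ran from 0.804 to 0.981.

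The 61 genes lie on 22 chromosomes, and 11 neighbouring pairs among them are less than 1 Mb apart on ARS-UCD1.2. COL4A1 and COL4A2 lie back to back on chromosome 12, on opposite strands and 44.3 kb apart as annotated, and their log2FCs differed by 0.01. COL5A2 and COL3A1 lie 18.0 kb apart on chromosome 2 and had log2FCs of -0.18 and -0.17 in the authors' deposited table. COL18A1 lies 372 kb from COL6A1 on chromosome 1, with log2FCs of 0.43 and -0.12 in the authors' deposited table. ITGA2 and ITGA1, 27.0 kb apart, are those of the 61 on chromosome 20, which also holds PRLR. They lie 12.9 Mb and 12.7 Mb from it, with log2FCs of -0.26 and 0.01 in the authors' deposited table.

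Genes that process, decorate, degrade or signal around the matrix were counted as 6 further lists. In any of them 0 genes passed the adjusted threshold, where 0.501% of all genes did, too small a share for this to be a result about the lists. Of 27 genes of collagen processing and crosslinking, 4 were lower and 1 was higher at an unadjusted p under 0.05, with a median log2FC of -0.07. That share, 18.5%, is near the 16.0% of all genes. P4HA2, a prolyl hydroxylase that collagen folding needs, had a log2FC of -0.51 and the crosslinking oxidase LOXL4 one of -0.70, with FDR values of 0.123 and 0.130 in the authors' deposited table. SERPINH1, the collagen chaperone, had a log2FC of -0.25 and an unadjusted p of 0.0236 in the authors' deposited table.

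Of 37 matrix glycoproteins and proteoglycans, 10 had a log2FC of more than 0.5 in size, where 1123 of all 14161 genes did. At an unadjusted p under 0.05, 10 were lower and 2 higher, which is 32.4% against 16.0% of all genes. Over all genes, 8.79% were lower and 7.22% higher at that p. The list median was -0.09. CCN2, a matricellular protein that YAP and TGF-beta induce, had a log2FC of -1.18 and an FDR of 0.0575, and osteopontin (SPP1) one of -2.44 and an FDR of 0.0599, in the authors' deposited table. Both are known from earlier results of these data. SPP1 is also among the cholangiocyte markers. Tenascin C (TNC) had a log2FC of -1.45 and an FDR of 0.0770, and lumican (LUM) one of -0.54 and 0.160, in the authors' deposited table. With smaller p than LUM, FBLN1 had a log2FC of -0.70 (FDR = 0.0945), EFEMP1 one of -0.83 (FDR = 0.0983) and VCAN one of -1.03 (FDR = 0.157). Fibronectin (FN1) and vitronectin (VTN), which hepatocytes make and integrins of the RGD class bind, had log2FCs of 0.32 and 0.25 and FDR values of 0.245 and 0.315 in the authors' deposited table. TNC, FBLN1, EFEMP1, VCAN, LUM, FN1 and VTN were chosen after their values were seen. So were SERPINH1, KRT7, KRT19, PPBP, GP1BA, LRAT, DES and ACTA2 of the other lists.

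The list of matrix proteases and inhibitors had 22 of 25 negative values, a median log2FC of -0.21 and 10 genes (40.0%) with an unadjusted p under 0.05, of which 9 were lower, against 16.0% and, for lower alone, 8.79% of all genes. TIMP2, an inhibitor of matrix metalloproteinases, had a log2FC of -0.36 and the collagen-degrading cathepsin CTSK one of -0.37, with FDR values of 0.147 and 0.154 in the authors' deposited table. Of 18 genes of the TGF-beta axis, 4 were lower and 0 higher at an unadjusted p under 0.05 (median log2FC -0.10), which is 22.2%, all lower, where 8.79% of all genes were lower and 16.0% were under that p in either direction. The decoy receptor BAMBI had a log2FC of -0.48 and the SMAD repressor SKIL one of -0.57, with FDR values of 0.0930 and 0.101 in the authors' deposited table.

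Integrin adaptors and focal adhesion genes showed small differences: of 32 compared, which include the 3 integrin-binding proteins, 2 were lower and 1 higher at an unadjusted p under 0.05 (9.38%, under the 16.0% of all genes), with a median log2FC of -0.03. The kinase SRC had a log2FC of -0.54 and the adaptor LIMS2 one of 0.68, with FDR values of 0.130 and 0.187 in the authors' deposited table. A last list joined other matrix receptors, such as DDR1 and DDR2, with cell surface proteoglycans, not all of which are receptors of collagen or laminin. Of its 12 genes, 2 were lower and 0 higher at an unadjusted p under 0.05 (16.7%, near the 16.0% of all genes). The median log2FC was -0.06. The 2 lower genes were the proteoglycans SDC4, with a log2FC of -0.33 and an FDR of 0.0899, and GPC3, with -0.90 and 0.215, in the authors' deposited table.

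**Figure D4:**
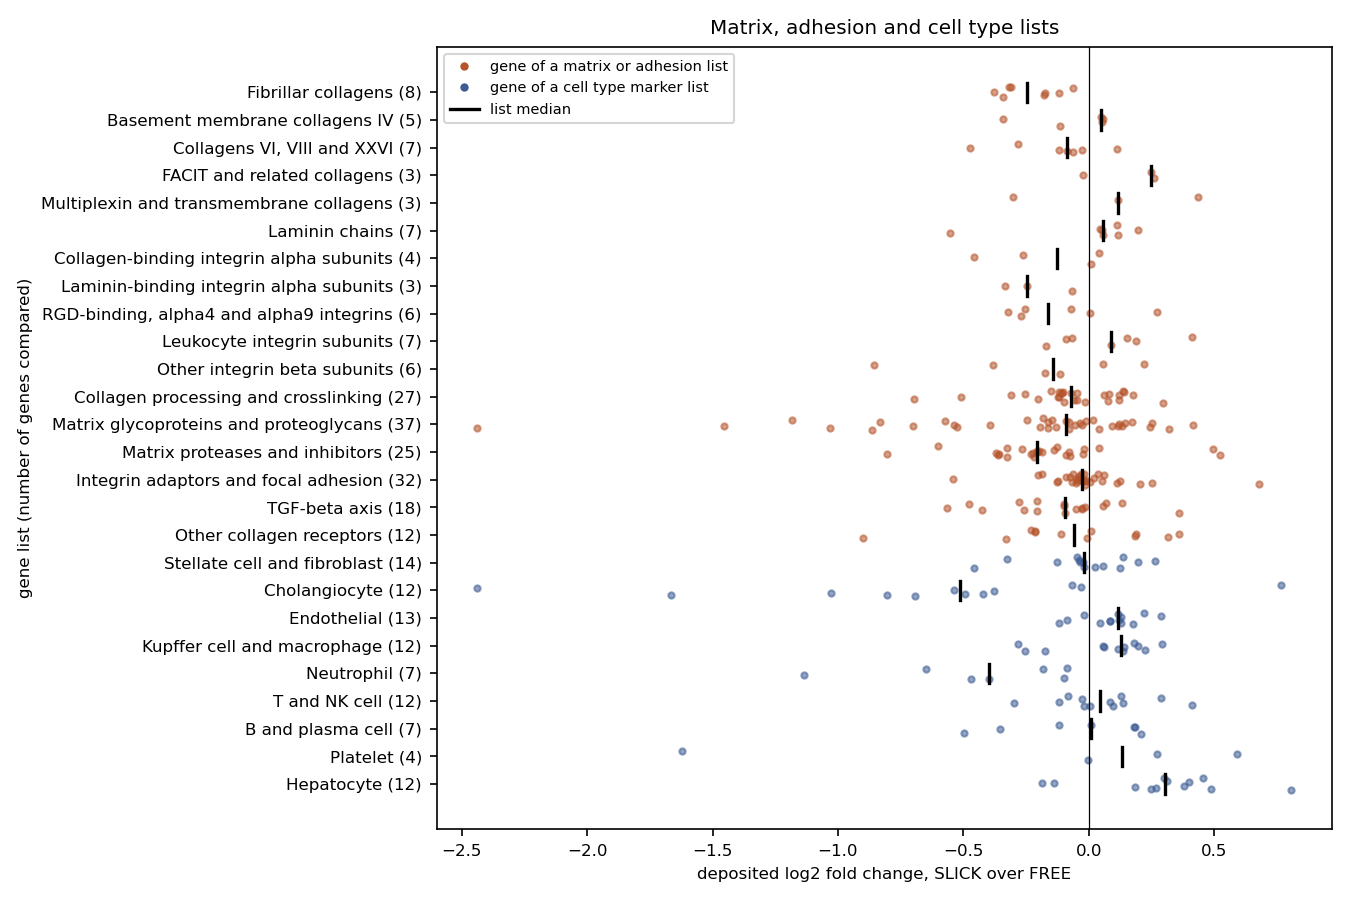
Deposited log2 fold change of SLICK over FREE (x axis) of each gene (points) in the matrix and adhesion lists and the cell type marker lists (y axis), with list medians as black bars. The fibrillar collagens lie left of 0 in 8 of 8 cases, where 51.8% of all genes do, with a median of -0.24. The cholangiocyte median lies at -0.52.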

How the data were processed

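Liver RNA was sequenced from TruSeq (18 samples) or SMARTer (16 samples) libraries, per the labels' protocols. HISAT2 2.1.0, featureCounts, Subread, edgeR and ARS-UCD1.2 are named, with no roles, in the submitters' processing notes. For slick against free, the authors deposited per gene the log2 fold change and the average log2 CPM. The authors also deposited the F score with its p-value, raw and adjusted (FDR), per the column names. No source used here gives the terms of the model. Another deposited column is the gene length in bases, used for levels per kb. Coordinates came from the SMARTer count table, whose header names featureCounts 1.6.2 and Ensembl release 100.

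In the 4 tables, 70 columns give per-library values under animal numbers, and none of these was used. Of the 18 animals that the comparison names, the count table of the TruSeq libraries shares 17. The planned quasi-likelihood fits of S2 against S1 and of SLICK against FREE were therefore not run, and depth per sample is unknown.

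Of 14246 rows, 85 repeat a gene under another symbol, and 14161 genes were kept. The deposited F score and p-value imply 18.7 denominator degrees of freedom. The 95% intervals take the square root of F as the ratio of fold change to its error, which is approximate. Genes planned for naming were those of smallest p and highest level per kb in each family, with their partner chains. The genes of smallest p in the further matrix lists were planned too. Members outside that plan, such as COL12A1, COL13A1 and COL20A1, were also named. Markers named from the cell type lists were not always those of smallest p. Among those left out above were CLDN4 of the cholangiocytes (log2FC -1.67, FDR = 0.0599) and CYP2E1 of the hepatocytes (0.81, FDR = 0.0847). Others were LTF and S100A12 of the neutrophils and CD68 of the macrophages. Members and lists were chosen with earlier results of these data known. Interval and adjustment code was tested on simulated data, run in Python 3.11.15 with scipy 1.17.1, pandas 2.3.3 and numpy 2.4.6. Values of 1 laminin gene are not reported here, though it is in the counts and medians.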

Additional observations from a re-analysis of the deposited data

How the results depend on the processing

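At an adjusted p of 0.10, 0 collagen, laminin or integrin genes passed. The same held with p-values adjusted again over the genes kept once, and with genes under an average of 0 log2 CPM left out. At the deposited adjusted p of 0.05 the count was also 0, where 0.501% of all genes passed. Shares of all genes under the other settings were not counted, so these counts are no result about the families. At an unadjusted p under 0.01 in place of 0.05, 2 of the 61 genes remained (COL6A3 and COL18A1, against 5), with 0 laminins and 0 integrins. By p, COL6A3 ranked 482 and COL18A1 872 among all 14161 genes. Many other genes thus pass that threshold too, and the count is no result about the families. With genes under 0 log2 CPM left out, the count at an unadjusted p under 0.05 stayed at 5. This is 9.62% of the 52 kept, against 16.6% of all genes kept. Centring on the median of all genes shifts every gene by less than the size of any negative log2 fold change among the 61, so it could not change a sign and tests nothing about the directions. Without genes under 0 log2 CPM, the median log2 fold change went from 0.05 to 0.08 for laminins, from -0.09 to -0.07 for integrins and stayed at -0.10 for collagens. Leaving out the 3 binding proteins left the median of the whole set at -0.07. No paired analysis was possible because no library column could be tied to a sample, and leaving out single animals could not be done for the same reason. Whether 1 animal or the uneven share of sires carries any of the differences was not tested. The intervals of 5 scarce genes are too wide to bound a change at 1 log2 unit.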
